A study of Mus musculus with 24 samples.

Results

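The dorsal lateral geniculate nucleus (dLGN) is the thalamic nucleus that receives the axons of retinal ganglion cells and relays vision to the cortex. Its expression profile on the day of birth (P0) was compared between mice whose eyes had both been removed in the womb and control mice. The members are all the P0 dLGN arrays of the series, chosen by their labels: 6 of 24 arrays, 4 from enucleated (embBE) and 2 from control pups. Each array was hybridised with the RNA of pooled dLGN tissue from pups of a single litter and condition, all of them C57BL/6 wild-type mice, and eyes were cauterised in the embryo before retinal axons reach the thalamus. The other 18 arrays hold the ventrobasal complex (VB), the somatosensory relay nucleus, at P0 and P4, and the dLGN at P4. Arrays are named here by their condition and the number pair of their label: embBE 39_2, 39_3, 39_4 and 35_3, and control 35_1 and 39_5. The meaning of those numbers is not given in the sources used here. The P4 dLGN comparison rested on 3 embBE and 3 control arrays, and the VB comparison at P0 on 3 and 3.

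Late in gestation and around birth the thalamus turns from making neurons to making glia. Radial glia, the progenitors that line the ventricle and send fibres across the tissue, give rise to astrocytes, which then divide locally and take on transport and support roles. Fibroblast growth factors act on these cells through receptor tyrosine kinases and the ERK cascade, which switches on its own inhibitors, and retinal axons arriving in the dLGN meet both relay neurons and these glia. Microglia, the resident phagocytes of the brain, populate the nucleus over the same days.

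A change was called where the means differed by at least 1.5-fold with an unadjusted p under 0.05. These thresholds are those of the study's methods, and the p-values are from limma, which those methods do not name. Of 18194 genes, 81 were called, 16 higher and 65 lower in embBE dLGN. These are 0.445% of all genes tested, 0.0879% for the increases and 0.357% for the decreases. None passed an adjusted p of 0.05 in limma, and the lowest adjusted p was 0.0823. Other fits passed 0 to 4 genes. At an unadjusted p under 0.05 there were 433 genes, or 2.38%, which is fewer than the 5% that such a threshold lets through when no gene differs. The called genes are therefore given below as the leading differences among 6 arrays, with each array's value, and none is established gene by gene after correction. The increases ranged from 1.5-fold to 3.6-fold and the decreases from 1.51-fold to 2.74-fold. All 4 embBE arrays lay on the same side of both control arrays for 48 of the 65 decreases and 10 of the 16 increases, and for 9.98% of all genes in either direction. Calling on the means of these same arrays favours such genes, so this order is no separate support for the calls. It was also part of the rule for naming single genes below.

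The arrays differed in ways that touch these values. The spread of log2 signal over all probe sets (SD) was 2.17 on embBE 39_3 and 2.22 on embBE 35_3, against 2.30 and 2.37 on the other embBE arrays and 2.35 and 2.32 on the controls. On the 2 narrow arrays bright genes therefore read low and dim genes read high. Of 3 equal groups of genes by mean signal, the bright one had a median difference from the control mean of −0.28 on embBE 39_3 and −0.17 on embBE 35_3, against −0.02 and 0.04 on embBE 39_2 and 39_4. Without both narrow arrays, 55 genes were called, 29 of them among the 81, and the direction of all 81 was unchanged. That fit reuses arrays on which these genes were called, so the kept direction is a weak check. Both controls and embBE 39_2 and 39_3 had low Xist and high Eif2s3y, a Y-linked gene, while embBE 39_4 and 35_3 had the opposite pattern. The number of called genes ranged from 56 to 580 as each array was left out in turn, so single calls are followed below through these fits.

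**Figure D1:**
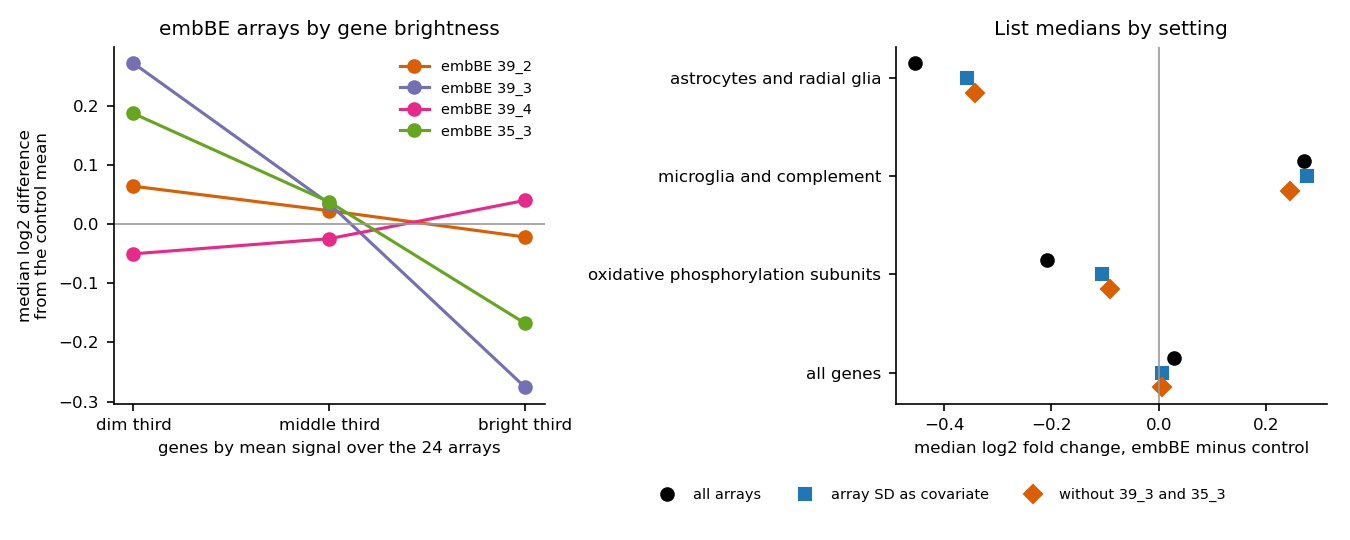
Left, the median log2 difference of each embBE array from the mean of both control arrays at P0 in the dLGN, for genes split into 3 equal groups (dim, middle, bright) by mean signal over the 24 arrays; embBE 39_3 and 35_3 ran from above 0 for dim genes to −0.28 and −0.17 for bright genes. Right, the median log2 fold change (embBE minus control) of 3 gene lists and of all genes with all arrays, with the array SD as a covariate, and without embBE 39_3 and 35_3; the glial median moved from −0.45 to −0.34 and the oxidative phosphorylation median from −0.21 to −0.09.

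Metrn, which encodes the secreted factor meteorin made by neural progenitors and astrocytes, showed the strongest evidence of a difference at birth. Its log2 signal was 8.32, 8.31, 8.79 and 8.77 on embBE 39_2, 39_3, 39_4 and 35_3, and 10.12 and 9.89 on control 35_1 and 39_5. All embBE arrays lay more than 1 log2 unit below the lower control. The difference was −1.46 (SE 0.19), a 2.74-fold lower level, with an adjusted p = 0.0823. Metrn was called with each array left out in turn, at −1.57 to −1.34, and without both narrow arrays, at −1.45. A second, dimmer probe set of the gene, at a mean of 6.66, gave −0.21 with overlapping groups. At P4 the difference in the dLGN was −0.33 (SE 0.17), and in the VB at P0 it was −0.07 (SE 0.24). Between the days the effect changed by 1.12 (SE 0.25, adjusted p = 1).

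Fgf15, an FGF of the developing diencephalon and other progenitor zones, followed. Its log2 signal was 5.62, 5.36, 5.63 and 5.61 on the embBE arrays and 6.85 and 6.52 on the controls. The embBE arrays thus lay together, well below both controls. Fgf15 is in the dim group of genes, with a mean of 5.46 over the 24 arrays. Whether low signal narrowed the spread of its embBE values was not tested. The difference was −1.13 (SE 0.20), 2.19-fold lower, with an adjusted p = 0.610. It was called with each array left out in turn, at −1.30 to −0.97. In control VB at P0 the level was 5.14 (SD 0.15, n = 3), and the embBE effect there was −0.06 (SE 0.12). In the P4 dLGN, control arrays averaged 6.12 (SD 0.33, n = 3) and embBE arrays 5.62 (SD 0.28, n = 3), a difference of −0.50 (SE 0.19) that was not called. The control level in the dLGN thus stood above that in the VB at both days, and the embBE dLGN arrays lay between them. The effect at P0 in the dLGN minus that in the VB was −1.07 (SE 0.23, adjusted p = 0.551), so no difference between the nuclei passed correction.

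**Figure D2:**
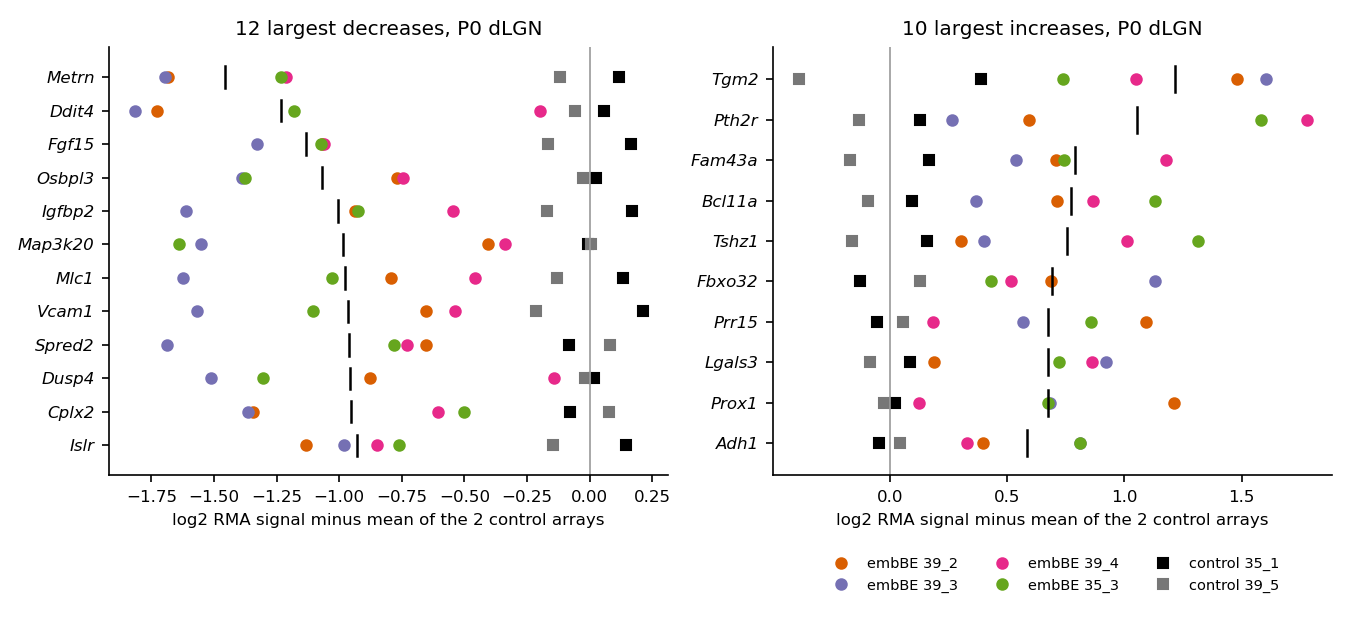
Log2 RMA signal of each P0 dLGN array minus the mean of both control arrays (squares, controls; circles, embBE; black bar, embBE mean) for the 12 largest called decreases, left, and the 10 largest called increases, right, among genes whose groups did not overlap. The 4 embBE values of Fgf15, a gene of the dim group, lie within 0.27 of each other. Those of Ddit4, Map3k20 and Dusp4 spread over more than 1 log2 unit.

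Genes of astrocytes and radial glia made up the list with the lowest median. Of 18 measured members, 5 were called lower and none higher, and the other 13 were not called. Over all genes, 0.357% were called lower. The median difference was −0.45, against 0.03 over all genes. Below 0 lay 14 of 18, or 77.8%, against 45.4% of all genes and 68.3% of the bright group of all genes. The summed signal of the list was 15800 to 23600 on the embBE arrays and 25400 to 29400 on the controls, with no overlap. The list was chosen with earlier results of these data known, so these are a description of its members. In whole tissue, fewer cells of a type cannot be told apart from less RNA per cell. The median was −0.25 among the arrays numbered 35 and −0.30 among those numbered 39. Counts depended on single arrays. Without control 35_1, 2 members were called, at a median of −0.26, and without embBE 35_3, 3 were called, at −0.45. With embBE 39_3 left out, 1 member was called, at a median of −0.31, and without both narrow arrays 2 were called, at a median of −0.34. With the array SD as a covariate, 3 were called, at −0.36.

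The called members, apart from Fgf15, were Fabp7, Aldh1l1, Hopx and Tnc. Fabp7, the brain lipid-binding protein of radial glia and young astrocytes, read 12.90, 12.04, 13.09 and 12.60 on the embBE arrays and 13.54 and 13.29 on the controls, a difference of −0.76 (SE 0.27). Aldh1l1, a folate enzyme used as a pan-astrocyte marker, read 8.75, 7.97, 8.91 and 8.31 against 9.31 and 9.17, a difference of −0.75 (SE 0.30), and its second, dimmer probe set gave −0.07. For both genes every embBE array lay under both controls, and embBE 39_3 was the lowest. Hopx, a homeodomain protein of radial glia, differed by −0.70 (SE 0.29) and Tnc, the matrix protein tenascin C, by −0.67 (SE 0.27), each with overlapping groups; Tnc is named after its values were seen. The call of Fabp7 was lost without control 35_1 (−0.63) or embBE 39_3 (−0.55), and that of Aldh1l1 without either control (−0.68 and −0.82), embBE 39_3 (−0.58) or embBE 35_3 (−0.69). Hopx was called without control 39_5 (−1.04) or embBE 39_4 (−0.90) and lost its call without any of the others, at −0.36 to −0.67. Tnc lost its call without control 35_1 (−0.21), embBE 39_3 (−0.53) or embBE 35_3 (−0.64). Without both narrow arrays none of these 4 genes was called, at −0.41 to −0.45.

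List members that were not called are given here and below by values, and those named were chosen after their values were seen. Slc1a3, the glutamate transporter of radial glia and astrocytes, was at −0.54 (SE 0.19) and Fgfr3 at −0.47 (SE 0.14), each with no overlap between groups. Vim, Aldoc and S100b were at −0.50, −0.47 and −0.44, with overlap. Gja1, the main connexin of astrocytes, was at −0.27, Sox9, a transcription factor of glial progenitors, at −0.22 and Slc1a2, a second glutamate transporter, at −0.16. Aqp4, the water channel of astrocyte endfeet, was at −0.09, Nes, an intermediate filament of progenitors, at 0.02, Glul at 0.04 and Gfap, the intermediate filament of mature astrocytes, at 0.23. Gjb6, a second astrocyte connexin, was at 0.17 and was the single member that lay above both controls on every embBE array. At P4 the median of the list was −0.07, with 12 of 18 below 0 and none called, and in the VB at P0 it was −0.00, with 9 of 18 below 0.

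**Figure D3:**
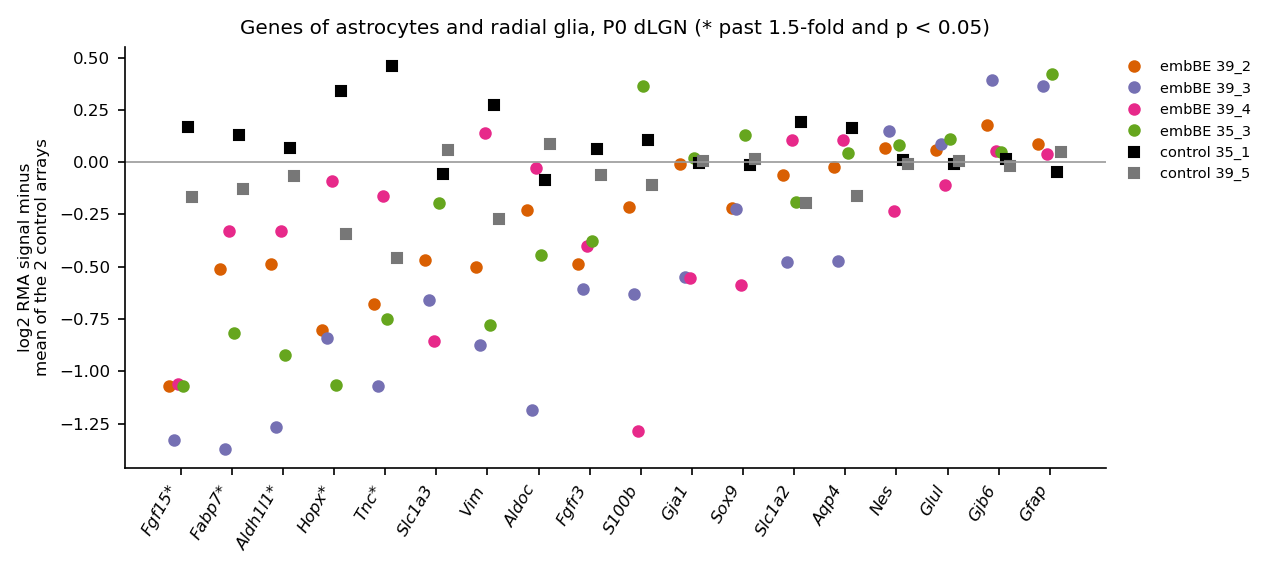
Log2 RMA signal of each P0 dLGN array minus the mean of both control arrays for the 18 measured genes of astrocytes and radial glia, ordered by their mean difference, with an asterisk at the 5 called genes. Fgf15, Fabp7 and Aldh1l1 were below both controls on every embBE array, embBE 39_3 was the lowest array for those 3, and Gfap, at the right, averaged 0.23 above the controls.

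Further leading decreases lay outside the glial list. Igfbp2, a secreted binding protein of insulin-like growth factors, read 7.54, 6.87, 7.94 and 7.56 on the embBE arrays and 8.65 and 8.31 on the controls (−1.01, SE 0.27). Mlc1, a membrane protein of astrocyte endfeet, differed by −0.98 (SE 0.36), and Vcam1, an adhesion molecule of vessels and of neural progenitors, by −0.97 (SE 0.34). Igfbp2 was called with each array left out and without both narrow arrays (−0.74). Mlc1 and Vcam1 lost their calls without control 35_1 (−0.84 and −0.75), and without both narrow arrays they stood at −0.62 and −0.60, of which neither was called. Of the other probe sets of Vcam1, one gave −0.49 and one 0.07. In the VB at P0 the same genes stood at −0.02 (Igfbp2), 0.24 (Mlc1) and 0.37 (Vcam1), none of them called.

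Inhibitors of FGF and ERK signalling were also among the decreases. Spred2, which blocks Ras activation, read 8.17, 7.14, 8.10 and 8.04 on the embBE arrays and 8.74 and 8.90 on the controls (−0.96, SE 0.29). Dusp4, a nuclear phosphatase of ERK that ERK itself induces, read 8.53, 7.90, 9.27 and 8.11 against 9.43 and 9.39 (−0.96, SE 0.37). On every embBE array both genes lay below both controls, with embBE 39_4 close to them for Dusp4. Spred2 was called with each array left out, at −1.07 to −0.72. Dusp4 lost its call without either control (−0.94 and −0.98), embBE 39_3 (−0.77) or embBE 35_3 (−0.84). Dusp4 was at −0.51 without both narrow arrays and at −0.52 with the array SD as a covariate, not called in either, while Spred2 was at −0.69 and called in both. A second probe set of Spred2 gave −0.81 with no overlap, and the other 3 gave −0.12 to 0.13. Dusp4 was again called lower at P4, by −0.95 (SE 0.35), where Spred2 was at −0.50 (SE 0.27).

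Over the whole FGF list, which holds FGF family genes, receptors and feedback genes, 2 of 27 members were called lower and none higher, at a median of −0.03. Of the receptors, Fgfr2 was at −0.56 (SE 0.19) with no overlap and Fgfr1 at −0.03. Of the feedback genes, Etv5 was at −0.52 and Spred1 at −0.39, while Spry2 and Spry4 were at −0.04 and 0.13. The FGF family genes on the list, from Fgf12 at −0.42 to Fgf17 at 0.34, included none that was called. Without embBE 39_4, 4 members were called lower, and 1 was without control 35_1, embBE 39_3 or embBE 35_3. Fgf15 was counted with the glial list and not here.

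Promoter sequence was at hand for Metrn and Spred2, the leading secreted factor and the leading ERK inhibitor, and is shown here for reference. Each run is the 250 bases before the start of transcription in the RefSeq annotation, 5′ to 3′ on the gene's strand (GRCm38.p6). Metrn lies at chr17:25797046-25797295 on the minus strand and Spred2 at chr11:19924192-19924441 on the plus strand. Capitals mark a match on either strand to the ETS letters CCGGAAG, the AP-1 letters TGANTCA or the SOX letters ACAAAG.
Metrn: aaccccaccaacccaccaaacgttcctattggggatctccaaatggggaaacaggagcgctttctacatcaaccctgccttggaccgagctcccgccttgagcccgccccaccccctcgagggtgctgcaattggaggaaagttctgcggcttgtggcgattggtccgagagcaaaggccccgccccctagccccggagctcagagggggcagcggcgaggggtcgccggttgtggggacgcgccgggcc
Spred2: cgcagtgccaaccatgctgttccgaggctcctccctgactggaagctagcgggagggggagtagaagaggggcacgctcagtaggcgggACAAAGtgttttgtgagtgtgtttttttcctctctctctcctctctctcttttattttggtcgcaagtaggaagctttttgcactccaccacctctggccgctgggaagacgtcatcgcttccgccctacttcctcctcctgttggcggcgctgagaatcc
The window of Metrn held none of the 3 motifs and that of Spred2 held 1 SOX match. Among the 54 called decreases with a promoter in the table, 7 (13.0%) held the SOX letters and 7 (13.0%) the ETS letters, against 13.8% and 10.6% of 14453 promoters of measured genes. None held the AP-1 letters, found in 5.58% of all.

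The remaining leading decreases had other roles. Ddit4, a stress-induced inhibitor of mTOR signalling, read 9.19, 9.11, 10.72 and 9.74 on the embBE arrays and 10.98 and 10.86 on the controls (−1.23, SE 0.40). Osbpl3, an oxysterol-binding protein, read 7.42, 6.81, 7.45 and 6.82 against 8.22 and 8.17 (−1.07, SE 0.25). Osbpl3 was called with each array left out, at −1.18 to −0.96, and without both narrow arrays, at −0.76. It was called lower again in the dLGN at P4, by −0.98 (SE 0.24), and stood at −0.18 (SE 0.26) in the VB at P0. A second probe set of Osbpl3 gave −0.84 with no overlap and the other, very dim one gave 0.06. Ddit4 lost its call without control 35_1 (−1.17) and without both narrow arrays (−0.96). Islr, a secreted immunoglobulin-family protein, differed by −0.93 (SE 0.22), was called with each array left out, and stood at −0.36 in the VB at P0.

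Map3k20, a stress-activated kinase, differed by −0.98 (SE 0.44), with embBE 39_3 and 35_3 at 6.89 and 6.81 and embBE 39_2 and 39_4 at 8.04 and 8.11, against 8.44 and 8.45 on the controls. It was called without embBE 39_2 (−1.18) or embBE 39_4 (−1.20) and lost its call without either control (−0.99 and −0.98), embBE 39_3 (−0.79) or embBE 35_3 (−0.77). Without both narrow arrays it was at −0.37. Its other 3 probe sets gave 0.04 to 0.18.

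Among genes of neuronal signalling, single members were called lower while the medians of their lists stayed near that of all genes. Cplx2, which encodes complexin 2 and regulates the fusion of synaptic vesicles, read 9.67, 9.65, 10.41 and 10.51 on the embBE arrays and 10.94 and 11.09 on the controls (−0.95, SE 0.25), and was called with each array left out. A second bright probe set of Cplx2, at a mean of 9.45, gave 0.04, so the probe sets of this gene disagree. Cplx2 was also called lower in the VB at P0, by −0.85 (SE 0.32), and was at −0.02 in the dLGN at P4. Of the 39 measured genes of vesicle release, Cplx2 and Synpr were called lower and none higher, at a median of −0.05. Synpr, a synaptic vesicle membrane protein, was at −0.87 (SE 0.34) with overlapping groups. It lost its call without control 39_5 (−0.58), embBE 39_2 (−0.79) or embBE 35_3 (−0.82).

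Cck, the precursor of the neuropeptide cholecystokinin, read 10.997, 10.82, 10.72 and 10.55 on the embBE arrays and 11.45 and 11.61 on the controls (−0.76, SE 0.23). Every embBE array lay below both controls, and Cck was called under all 20 alternative fits made for named genes, at −0.68 without both narrow arrays. It was the only called gene of 18 measured neuropeptide genes, whose median was 0.08. Scn1a, a voltage-gated sodium channel, was at −0.61 (SE 0.17) and was the single call of 27 sodium, calcium and HCN channel genes. Kcnn1, a calcium-activated potassium channel, was at −0.76 (SE 0.21) and was the single call of 46 potassium channel genes. Kcnn1 lost its call without control 35_1 (−0.46), and Scn1a without control 39_5 (−0.57), embBE 39_3 (−0.53) or embBE 35_3 (−0.56). Without both narrow arrays neither was called, with Kcnn1 at −0.57 and Scn1a at −0.43. A second probe set of Kcnn1, of similar brightness, gave −0.22 with overlapping groups. The other probe sets of Scn1a gave −0.36 and −0.17, also with overlap.

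Of 49 measured guidance genes, Sema5a and Nrp1 were called lower and none higher, at a median of 0.05. Sema5a, a transmembrane semaphorin, read 9.82, 9.74, 9.54 and 9.04 on the embBE arrays and 9.69 and 10.69 on the controls (−0.65, SE 0.27). Nrp1, the receptor subunit for class 3 semaphorins, was at −0.62 (SE 0.28), also with overlapping groups. Sema5a was at −0.15 without control 39_5 and −0.49 without embBE 35_3, neither of them called. Nrp1 was called without control 35_1 (−0.90) or embBE 39_2 (−0.86) and lost its call without any of the others, at −0.35 to −0.59. None of 21 ephrin and Eph receptor genes was called, at a median of 0.00. Among 23 matrix genes, Reln, the glycoprotein that guides neuronal layering, was the single call, at −1.07 (SE 0.39). Its controls differed widely, at 8.71 and 10.40, against 8.21, 8.45, 8.93 and 8.36 on the embBE arrays, and without control 39_5 the difference was −0.22 and not called.

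Control 39_5 also stood apart for genes of GABAergic neurons. The summed signal of the 21 measured genes was 4400 on that array, 1630 on control 35_1 and 1440 to 2280 on the embBE arrays. Gad1, the main enzyme of GABA synthesis, read 9.51 on control 39_5, 7.29 on control 35_1 and 6.15, 6.01, 8.26 and 6.93 on the embBE arrays. None of the 21 genes was called, at a median of −0.27. Without control 39_5 the median was 0.23. Without control 35_1 it was −0.48 with 9 called lower, and without embBE 39_4 it was −0.33 with 4 called lower. Sox14, a transcription factor of the neighbouring GABAergic territory, was at 0.07 (SE 0.17), with all arrays between 6.18 and 6.68. Gbx2, a transcription factor of thalamic neurons, read 5.18 on control 39_5, 8.45 on control 35_1 and 6.51 to 9.05 on the embBE arrays. Its difference of 1.16 (SE 0.83) was not called, without control 35_1 it was 2.79 and called, and without control 39_5 it turned to −0.48.

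Among the increases, Tgm2 was the largest with no overlap. Tgm2 encodes transglutaminase 2, which crosslinks proteins. Its log2 signal was 8.77, 8.89, 8.34 and 8.03 on the embBE arrays and 7.68 and 6.90 on the controls, a difference of 1.22 (SE 0.31). Of its other 5 probe sets, 2 gave 0.94 and 1.21 with no overlap and the dimmest gave −0.02. Tgm2 was also called higher in the dLGN at P4, by 1.06 (SE 0.29), and was at 0.24 (SE 0.28) in the VB at P0. Without control 39_5, the difference at P0 was 0.83 and not called. Pth2r, a receptor for parathyroid hormone-related peptides, read 4.96, 4.63, 6.14 and 5.95 against 4.50 and 4.24 (1.05, SE 0.35), was at −0.04 at P4, and was not called without control 39_5 (0.92). The 2 embBE arrays with high Xist were the 2 that were high for Pth2r, and with only the 4 arrays of low Xist the difference was 0.43 and not called.

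Bcl11a, a zinc-finger transcription factor of neurons, read 11.15, 10.80, 11.30 and 11.57 on the embBE arrays and 10.53 and 10.34 on the controls (0.77, SE 0.20), and was called with each array left out. With only the 4 arrays of low Xist, Bcl11a was at 0.54 and not called. Tshz1, another zinc-finger factor, read 10.33, 10.42, 11.04 and 11.34 against 10.18 and 9.86 (0.76, SE 0.25). Both lay above the controls on every embBE array and were bright on every array. Tshz1 lost its call without control 39_5 (0.60) or embBE 35_3 (0.57) and, with only the 4 arrays of low Xist, was at 0.35. A second, dimmer probe set of Tshz1 gave 0.31 with overlapping groups. In the VB at P0 Bcl11a was at −0.33 and Tshz1 at −0.11, and at P4 in the dLGN they were at 0.18 and 0.23, none of them called.

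Prox1, a homeodomain factor of differentiating thalamic neurons, read 8.41, 7.89, 7.33 and 7.88 on the embBE arrays and 7.23 and 7.18 on the controls (0.67, SE 0.26). It lost its call without either control (0.70 and 0.65) or embBE 39_2 (0.50). It was the only call of 13 measured genes of thalamic relay neurons, whose median was 0.07 and of which 10 lay above 0. Of the general thalamic genes, Lhx9 read 12.12 to 12.63, Tcf7l2 12.22 to 12.79 and Zic1 13.73 to 13.91 over the 6 arrays. These values do not separate the dLGN from the VB, where Zic1 averaged 13.27 (SD 0.24, n = 3) in controls at P0. Slc17a6, the vesicular glutamate transporter of thalamic neurons, was at −0.00 (SE 0.51), Zic1, a zinc-finger factor, at 0.07 (SE 0.13) and its paralog Zic4 at −0.20 (SE 0.28). A second probe set of Slc17a6, of similar brightness (mean 12.02), gave −0.33 with overlapping groups. Rorb, an orphan nuclear receptor of thalamic neurons, read 7.12, 6.01, 7.49 and 7.58 on the embBE arrays and 6.90 and 6.54 on the controls. Its difference of 0.33 (SE 0.37) had an exact two-sided permutation p of 0.6, in a design whose smallest possible p was 0.0667. Of 20 alternative fits, Rorb was called in 1, with embBE 39_3 left out (0.68). Without control 39_5 it was at 0.15, and with only the 4 arrays of low Xist at −0.15. The other 2 probe sets of Rorb gave 0.05 and 0.11, with overlapping groups. Slc6a4, the serotonin transporter that young thalamic neurons express, was at −0.33 (SE 0.39).

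The other named increases were of mixed kind. Fam43a, a gene of little known function, differed by 0.79 (SE 0.22) and was called with each array left out except control 39_5 (0.62). Fbxo32, a ubiquitin ligase subunit induced by FOXO factors, differed by 0.69 (SE 0.20) and was not called without control 35_1 (0.56) or embBE 39_3 (0.54). Adh1, an alcohol and retinol dehydrogenase, was at 0.59 (SE 0.22) and was called without embBE 39_2 (0.65) or embBE 39_4 (0.67), and without any of the others it was not, at 0.51 to 0.63. Prr15 was at 0.67 (SE 0.30) and remained called when embBE 39_4 was left out (0.84) and with no other array left out, at 0.54 to 0.73. Other probe sets, all with overlapping groups, gave 0.11 and −0.03 for Prr15 and 0.25 and 0.04 for Fbxo32. Crabp2, a retinoic acid-binding protein, had the largest increase of all called genes but its groups overlapped, and it is named after its values were seen. It read 9.10, 6.61, 9.45 and 9.05 on the embBE arrays and 7.53 and 5.87 on the controls (1.85, SE 0.71). It was called without control 35_1 (2.68) or embBE 39_3 (2.50) and lost its call without any of the others, at 1.02 to 1.68. In the VB at P0 Crabp2 was bright in both conditions, at 10.21 (SD 0.23, n = 3) in controls and 10.32 (SD 0.56, n = 3) in embBE.

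All 19 measured genes of microglia and complement lay above 0, at a median of 0.27, but none was called. Csf1r, the receptor that microglia need to survive, was the highest, with 10.21, 10.26, 10.37 and 11.36 on the embBE arrays and 9.81 and 9.96 on the controls (0.67, SE 0.41). Trem2, Fcer1g and Laptm5 also had no overlap, at 0.40, 0.33 and 0.57, while Aif1, Itgam and Tmem119 were at 0.07, 0.03 and 0.00. Of all genes, 9.98% had no overlap in either direction. The summed signal of the list was 3640 to 6970 on the embBE arrays and 3320 to 3470 on the controls. The dim group of all genes also lay mostly above 0, at 4841 of 6065 with a median of 0.12. With that dim group left out, all 14 remaining microglial genes lay above 0, at a median of 0.33. Without both narrow arrays the microglial median was 0.25, with 4 of 19 below 0, and with only the 4 arrays of low Xist it was 0.01, with 9 of 19 below 0. Lgals3, galectin-3, and Clec7a, a pattern-recognition receptor, are known from phagocytic microglia and were called higher, by 0.67 (SE 0.21) and 0.65 (SE 0.26). Lgals3 read 5.41, 6.14, 6.08 and 5.94 against 5.30 and 5.13, and lost its call without control 39_5 (0.59). It was also not called without both narrow arrays (0.53) or with the array SD as a covariate (0.58). The same held after cyclic loess (0.56) and with only the 4 arrays of low Xist (0.56). Clec7a, which was picked once its values were known, was called without embBE 39_2 (0.83) or embBE 35_3 (0.69) and lost its call without any of the others, at 0.51 to 0.77.

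Subunits of oxidative phosphorylation, the bright mitochondrial genes of respiration, moved the other way without a call: 46 of 48 lay below 0, at a median of −0.21. The bright group of all genes lay below 0 in 68.3% of cases, at a median of −0.11. Without both narrow arrays the median of the subunits was −0.09, and after cyclic loess it was −0.08, with 27 of 48 below 0. Without embBE 39_4, 11 of the 48 were called lower, at a median of −0.23. Their summed signal was 255000 to 289000 on the embBE arrays and 292000 to 296000 on the controls.

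Genes of the cell cycle had a median of −0.19, with Nusap1, a spindle protein, as the single call (−0.60, SE 0.25). Below 0 lay 23 of 33, or 69.7%, against 45.4% of all genes and 68.3% of the bright group of all genes. Cdk1, Cenpa, Mki67 and Birc5 had no overlap between groups, at −0.62, −0.55, −0.41 and −0.27, and were not called. They were the only 4 of the 33 without overlap, and 9.98% of all genes had none in either direction. Without both narrow arrays the median was −0.21, with 30 of 33 below 0. Nusap1 was called without control 39_5 (−0.82) or embBE 39_4 (−0.73) and lost its call without any of the others, at −0.38 to −0.61, and its second, dim probe set gave 0.21. In the VB at P0 the median of the list was 0.29 and Nusap1 was called higher, by 0.74 (SE 0.23).

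No gene was called among 16 of the oligodendrocyte lineage (median 0.12), 11 of retinal ganglion cells (0.09), 20 of vessels and meninges (0.07), 28 regulated by neuronal activity (−0.07), 22 glutamate receptor genes (0.01), 20 of GABA and glycine receptors and chloride transport (−0.15), 17 of serotonin (−0.03) or 37 synaptic organizers (−0.03). Nor was any called among genes of the choroid plexus, cortex and hippocampus, habenula, circadian clock, cholesterol synthesis, cell stress or neurotrophin signalling, whose medians lay between −0.08 and 0.18. The median of the vessel genes was 0.35 without control 35_1, with 3 called higher, and −0.37 without control 39_5. Olig1, a factor of the oligodendrocyte lineage, was at −0.70 (SE 0.33) with no overlap and just short of the threshold; it is named after its values were seen. Fos, the immediate early gene, was at −0.58 (SE 0.23) with no overlap. Nefm, a neurofilament subunit of retinal and other axons, was at −0.76 (SE 0.38) with overlapping groups. The defining retinal factors Pou4f1, Atoh7 and Isl2 were at 0.16, 0.20 and 0.09.

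**Figure D4:**
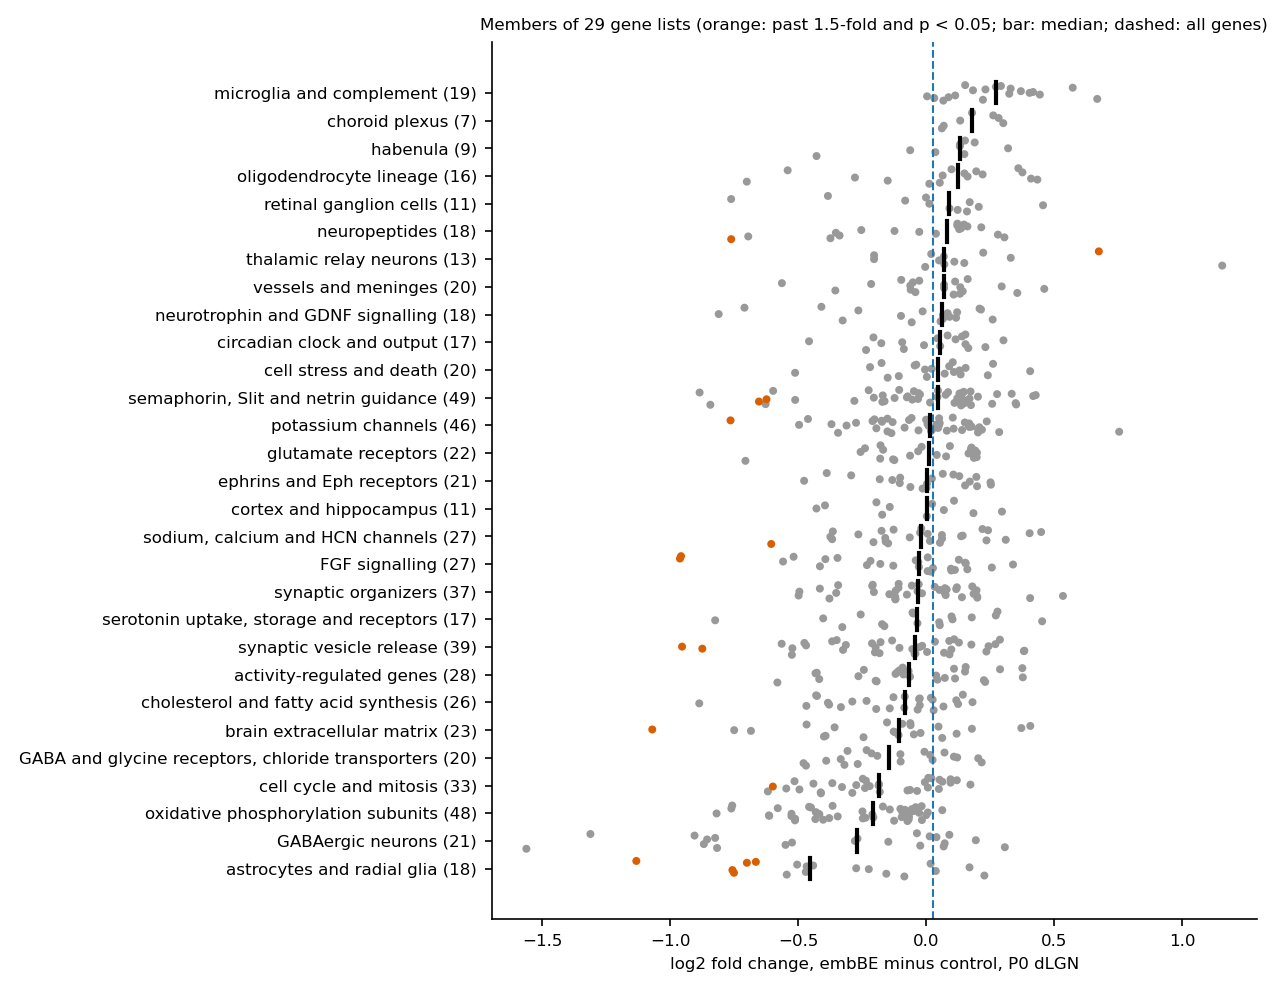
Log2 fold change (embBE minus control, P0 dLGN) of each measured member of 29 gene lists, with the number of members in brackets. Black bars are list medians, the dashed line is the median of all genes, 0.03, and orange points are called genes; the list of astrocytes and radial glia has the lowest median, −0.45, and that of microglia and complement the highest, 0.27.

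The called genes of birth were then read in the other comparisons. Xist was uneven there too. In the P4 dLGN all controls had high Xist (10.23 to 10.60), and embBE 36_2 alone had low Xist (7.08). In the VB at P0 all controls (6.93 to 7.31) and embBE 39_3 (6.97) had low Xist, while embBE 35_3 and 39_4 had high Xist. The Xist difference was −0.80 at P4 and 2.62 in the VB, against 2.12 in the P0 dLGN. Its part in the values below was not tested. The P4 dLGN arrays entered the calling at P0 only through the shared estimate of spread. The P0 arrays of the VB carry mostly the same number pairs as those of the dLGN, so tissue of the same litters or pups may be in both. Each number pair found in both nuclei at P0 had the same Xist and Eif2s3y pattern in both. In the dLGN at P4, 49 of the 65 decreases again lay below 0 and 10 of the 16 increases above 0, with medians of −0.16 and 0.11. For comparison, 8821 of all 18194 genes lay below 0 at P4, at a median of 0.01. Osbpl3, Dusp4 and Ldoc1 were called lower at both days, and Tgm2 and Vwf higher at both; Ldoc1 and Vwf are named after their values were seen. The P4 values were mostly smaller than those at P0. These genes were picked for large differences at P0, so smaller values over other arrays could arise with an unchanged effect. No difference between the days passed correction. For a change of the effect from P0 to P4, 76 genes were called, 0.418% of all. An unadjusted p under 0.05 was found for 143, and none passed an adjusted p of 0.05 in limma. In the VB at P0, 33 of the 65 decreases lay below 0, at a median of −0.00, against 10119 of all 18194 genes, at a median of −0.03, and 9 of the 16 increases above 0, at a median of 0.04. For the effect at P0 in the dLGN minus that in the VB, 462 genes were called, 2.54% of all, 1066 had an unadjusted p under 0.05, and the lowest adjusted p was 0.551.

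**Figure D5:**
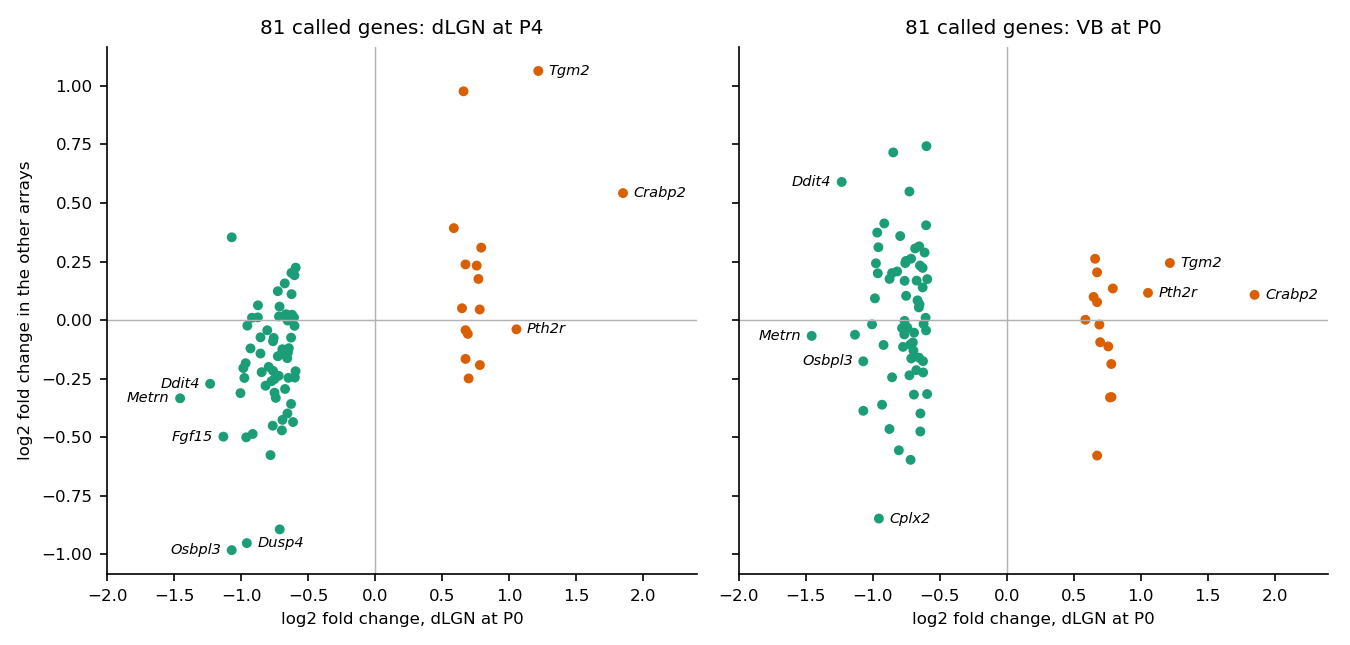
Log2 fold change (embBE minus control) of the 81 genes called in the P0 dLGN (horizontal axes; green, lower; orange, higher) against that in the dLGN at P4, left, and in the VB at P0, right, each over other arrays. At P4, 49 of 65 decreases lay below 0, with Osbpl3 and Dusp4 near −1 and Tgm2 at 1.06; in the VB, 33 of 65 lay below 0.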

How the data were processed

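Tissue was dissected from vibratome sections, and RNA was amplified in 2 rounds and hybridised to Affymetrix mouse expression arrays. The deposited values are log2 signals that the authors made by RMA, whose version is not given in the sources used here. RMA normalizes the probe values by quantiles, and the deposited probe set values still differed in spread between arrays. Precision is limited by the small number of arrays.

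Of 45101 probe sets, 34958 had a single gene symbol. Each of 18194 genes was represented by its brightest probe set, ranked on the average of the 24 arrays. limma 3.58.1 (R 4.3.3) was fitted to the dLGN arrays of both ages, with Benjamini-Hochberg adjustment over all genes, and SE is its standard error. The difference between nuclei was fitted on all 24 arrays with the label's number pair as a random block. Named genes were the 12 largest called decreases and increases without overlap (10 increases qualified), up to 4 called members of each list, and 9 genes named whatever their values. The members and lists were chosen with earlier results of these data known. The fits were tested on simulated data. Each array pools pups of a litter, and whether arrays of a group share a litter is not stated, so p-values measure only the spread between arrays. Alternatives included other normalizations, the methods' t-test and each array left out.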

Additional observations from a re-analysis of the deposited data

Results flagged for a closer look

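Among 78 gene values, list means and array measures examined in the group of 4 embBE arrays, 5 had 1 array far from the other 3, by a gap to the nearest array that took up most of the group's range (Dixon's ratio, past its 95% critical value), and chance flags about 1 in 20 (here 3.9). The mean log2 signal of the genes of astrocytes and radial glia was 8.45 on embBE 39_3 and 8.73 to 8.74 on the others (ratio 0.959). The same array was low for Fgf15, at 5.36 against 5.61 to 5.63 (0.949), for Spred2, at 7.14 against 8.04 to 8.17 (0.877), and for Crabp2, at 6.61 against 9.05 to 9.45 (0.861). For Synpr, embBE 39_4 was high, at 5.23 against 4.37 to 4.48 (0.871). Of these arrays, embBE 39_3 also had the narrowest spread of signal (SD 2.17). With the array SD as a covariate, Fgf15 was at −0.96, Spred2 at −0.69 and Crabp2 at 2.31, all called, Synpr was at −0.56 and not called, and the glial list had a median of −0.36 with 3 called.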

How the results depend on the processing

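The 81 calls depended on the fit. There were 28 with the methods' t-test, 203 over every probe set, 308 with array weights, 127 with the actin 3′ to 5′ gap as a covariate, 258 with Xist as a covariate and, chosen after seeing the data, 395 with only the 4 arrays of low Xist. Leaving out each array gave 56 to 580, the latter without embBE 39_4, and 122 and 143 without control 35_1 and 39_5. The first number of the label as a replicate block gave 125, and of 46 named genes 40 kept their side of the threshold and 6 did not: Hopx, Nusap1, Tnc and Clec7a lost their calls, and Gad1 (−1.77) and Olig1 (−0.63) gained them. Under the block 6 of the 21 GABAergic genes were called lower against 0 without it, and 3 of the 18 glial genes against 5. Whether this number pairs samples is not stated. Genes at an adjusted p under 0.05 numbered 2 in the fit of all 24 arrays, 1 after cyclic loess, 3 with array weights, 1 with the actin gap, 4 with the array SD, 1 with the 4 arrays of low Xist and 0 to 2 with each array left out. Genes called for P4 minus P0 ranged from 50 to 225 and for dLGN minus VB from 210 to 2209 with each P0 dLGN array left out, the highest count of each without embBE 39_4. No called gene named in the report changed direction, a weak check because the genes were called on mostly the same arrays. The fits with the array SD and without both narrow arrays were also chosen after seeing the data. With 2 control arrays, the fit assumes that they vary like the other dLGN groups.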
